A study of Rattus norvegicus with 5 samples.

Results

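The EGF family ligands Egf, Tgfa, Hbegf, Areg, Ereg and Btc, the receptors Egfr, Erbb2 and Erbb3, and the receptor inhibitor Errfi1 were followed in Fao cells during 1 hour of insulin. Fao is an established rat hepatoma line that keeps many liver functions. The genes were chosen by symbol, as every spot that is not a control and carries 1 of the 10 names. All 10 were found, on 11 probes and 38 spots, out of 35655 genes on 41012 probes and 43379 spots. A level is the log2 of a probe's signal divided by its array's 75th percentile. The series holds 5 single-colour arrays of total RNA, 1 for each of 0, 15, 30, 45 and 60 min with 10 nM insulin. Every culture, the 0 min one included, had grown for 2 days with 10% serum and then spent 16 h without serum, in 10 nM dexamethasone, a synthetic glucocorticoid. No culture without dexamethasone or without insulin at a later time was among the samples. There was 1 array per time and no replicate, so a single time has no test, and the only test was of a trend over the 5 arrays.

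EGF family ligands are made as membrane-anchored precursors that metalloproteases cut free at the cell surface. They bind EGFR and its relatives, which pair up, phosphorylate each other and recruit adaptors that switch on the RAS and PI3K cascades. ERBB2 binds no known ligand and works as a partner of the other receptors, while ERBB3 has a very weak kinase and carries many PI3K docking sites. ERRFI1, also called MIG6 or RALT, is an immediate early protein that binds the kinase domain of EGFR and ERBB2, blocks it and steers the receptor to lysosomes. In liver, EGFR signalling takes part in regeneration and in the response to injury.

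Between 50.87% and 56.45% of the non-control spots of an array were well above background, the flag set by the scanner software, and no spot was saturated. The arrays for 0 to 45 min lay on 1 slide, in the order of time, and the 60 min array lay on another, so slide and time cannot be told apart at 60 min. Over all genes measured on both arrays the change from 0 min had a standard deviation of 0.23, 0.24, 0.25 and 0.34 log2 units at 15, 30, 45 and 60 min. The 8 hepatocyte markers checked were well above background on all 5 arrays. Of 12 markers of macrophages, endothelium, stellate cells and bile duct, 11 were on the array. Of these, 4 (Cd68, Cdh5, Col1a1 and Krt19) were well above background on all 5 arrays and 4 (Pecam1, Pdgfrb, Krt7 and Epcam) on none. Csf1r, Kdr and Des were so on some arrays. Col1a1 was the brightest, with log2 levels of 0.66 to 0.77. The summed level of those seen on any array was 2.18 to 2.41 times the 75th percentile, against 837 to 936 times for the hepatocyte markers. In these bulk cultures fewer cells of a type and less RNA per cell cannot be told apart. The labels give 700 ng of total RNA for each array, so no value here reports cell number or RNA per cell. Added control transcripts read 0.14 to 0.21 log2 units higher at 15 to 60 min than at 0 min. If the arrays were scaled on the control transcripts, the median gene would lie 0.12 to 0.18 log2 units below its 0 min level.

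Errfi1 had the widest range of the 7 genes measured at every time: relative to 0 min, its level stood 1.43-fold up at 30 min and 1.41-fold down at 60 min. Hbegf, the ligand with the widest range, was also highest at 30 min and lowest at 60 min, 1.75-fold under its starting level. Tgfa, Egfr and Erbb3 were lower at 60 min by 1.31-fold to 1.57-fold, while Egf and Erbb2 differed from 0 min by -0.01 and 0.06 log2 units. Areg was well above background at 0 min alone, and Btc and Ereg on no array.

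**Figure D1:**
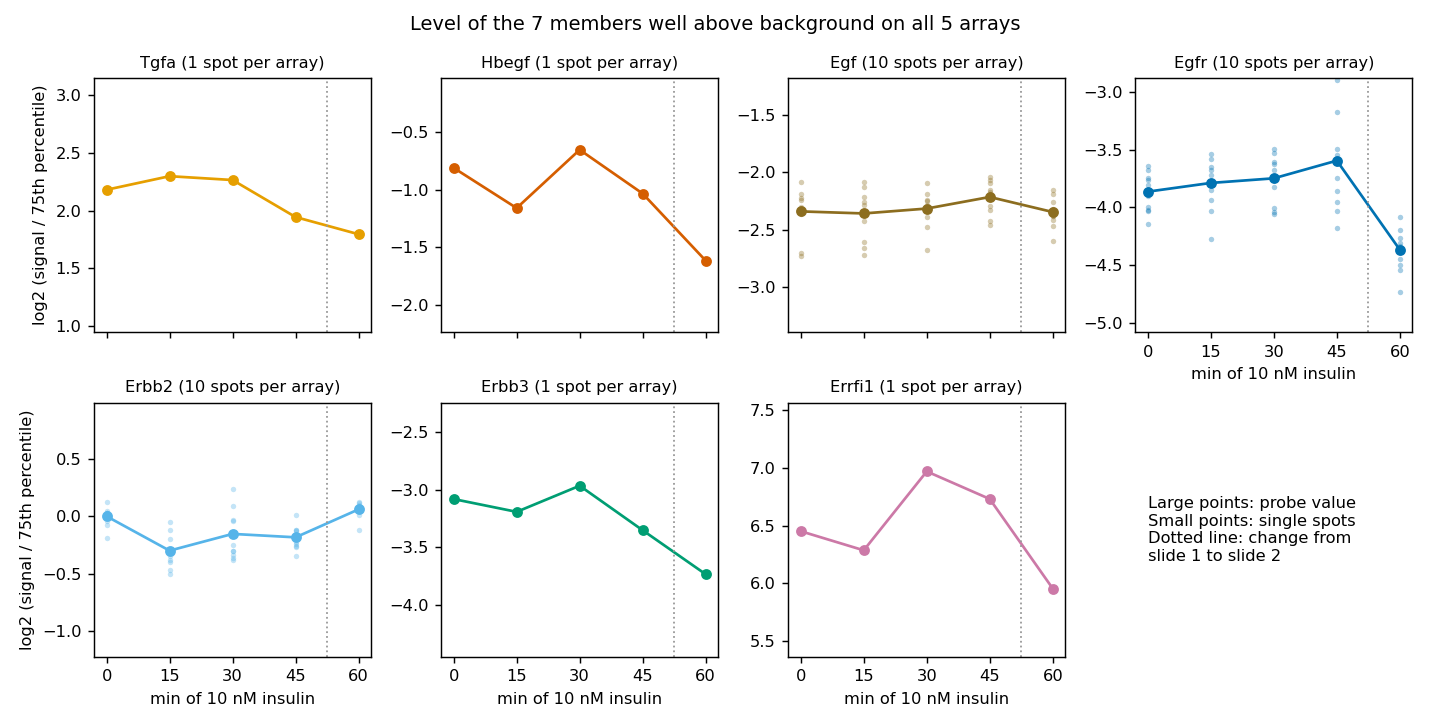
Level of each of the 7 genes well above background on all 5 arrays, as log2 of the signal over the array's 75th percentile (vertical axes, which differ between genes but span the same 2 log2 units or so) against minutes of insulin (horizontal axes); large points are probe values, small points single spots, and the dotted line marks the change of slide. Errfi1 and Hbegf are highest at 30 min and lowest at 60 min, and Egf is nearly flat.

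Among the ligands, Hbegf encodes heparin-binding EGF-like growth factor, which binds EGFR and ERBB4 and is a known early target of growth factor signalling. Its probe lies on rn4 at chr18:29143654-29143713 on the minus strand. Its log2 level was -0.81 at 0 min, -1.16 at 15 min, -0.65 at 30 min, -1.03 at 45 min and -1.62 at 60 min. The 60 min value was the lowest and the 30 min value the highest, with the 15 min value under both its neighbours. Against 0 min the differences were -0.35, 0.16, -0.22 and -0.80 log2 units, the last being 1.75-fold lower. At 60 min, 1.33% of the genes measured on both arrays were at least as far below 0 min. Of the 2022 genes whose 0 min level was within 0.5 log2 units of that of Hbegf, 95% had 60 min differences between -0.65 and 0.65, and Hbegf lay outside. Within the first slide, the step from 15 to 30 min was 1.42-fold upward (log2 0.51), and 1.17% of genes stepped up as far. From 30 to 60 min Hbegf was 1.95-fold lower (log2 -0.96), with 0.789% of genes as far down. Single spots carry a technical error: where a probe had 8 or more usable spots, its difference between 2 arrays varied between spots with a median SD of 0.091 to 0.12 log2 units. The 60 min difference is larger than that, but this SD holds no error shared by all spots of an array or slide. How separate cultures differ was not measured.

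The promoters of Errfi1, Hbegf and Areg are shown. The first 2 genes had the widest ranges over the 5 arrays, and Areg the only signal seen at 0 min and on no later array. RefSeq (GRCr8) gave the 250 bases before the start for 8 of the 10 genes, Erbb3 and Ereg not among them. That of Hbegf, chr18:28390221-28390470 on the minus strand, is given from its far end to the last base before the start, with capitals for the motifs found.
Hbegf: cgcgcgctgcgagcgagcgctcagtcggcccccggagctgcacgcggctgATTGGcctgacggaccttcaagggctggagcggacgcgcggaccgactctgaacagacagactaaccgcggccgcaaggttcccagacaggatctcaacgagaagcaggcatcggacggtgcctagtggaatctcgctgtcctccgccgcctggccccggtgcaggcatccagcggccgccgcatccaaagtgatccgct
The capitals are a CCAAT box on the reverse strand, 200 to 196 bases before the start, a motif present in 34.0% of the 33469 rat promoters of the same length. GC content was 67.6%, against a median of 51.2% over those promoters.

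Areg encodes amphiregulin, a heparin-binding EGFR ligand with roles in liver regeneration. Its single spot, at rn4 chr14:18466438-18466497 on the minus strand, had a processed signal of 33.2 at 0 min, with a mean pixel brightness of 77.5 over a local background of 45. At 15, 30, 45 and 60 min the processed signal was -1.95, -1.40, -1.32 and -1.21, none of them well above background. Areg was thus seen on 1 of the 5 arrays, as a dim spot, and no second spot or probe checks it. A bound was taken from the lowest signal well above background on each later array. By it Areg was at least 4.21-fold lower at 15 min than before insulin. The 30 min bound was at least 3.29-fold, that for 45 min at least 4.12-fold, and the 60 min one at least 6.84-fold, all downward. With 1 floor shared by all arrays, the bound was at least 3.29-fold at each of the 4 times. With a normexp background, which adds 50 to every signal, the differences at 30, 45 and 60 min were -0.28, -0.28 and -0.99 log2 units. The same fit was repeated without 5 spots, counted over all arrays, whose local background exceeded the spot by more than 100 units. This alternative, added after seeing the data, gave -0.33 at 15 min. None of these passes 2-fold. The promoter of Areg, chr14:17265642-17265891 on the minus strand of GRCr8, reads as follows.
Areg: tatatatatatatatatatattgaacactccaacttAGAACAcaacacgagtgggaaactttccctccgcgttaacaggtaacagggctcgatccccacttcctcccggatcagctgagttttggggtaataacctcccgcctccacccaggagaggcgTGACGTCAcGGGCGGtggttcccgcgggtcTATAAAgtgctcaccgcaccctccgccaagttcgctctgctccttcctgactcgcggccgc
Its capitals begin with AGAACA at 214 to 209 bases before the start, which is only part of a glucocorticoid receptor site. Then come, in order, the cyclic AMP response element TGACGTCA at 91 to 84, a GC box (GGGCGG) at 82 to 77 and a TATA box (TATAAA) at 61 to 56. These motifs occur in 17.5%, 1.59%, 30.5% and 12.9% of all promoters. Areg alone of the 8 genes held the cyclic AMP response element.

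Tgfa encodes TGF-alpha, an EGFR ligand made by hepatocytes. Its probe, at rn4 chr4:120437505-120437564 on the plus strand, read 2.18, 2.30, 2.27, 1.94 and 1.80 log2 units in order of time. The first 3 arrays lay within 0.12 of each other and the 45 and 60 min arrays below them. The differences from 0 min were 0.12, 0.08, -0.24 and -0.39, so that Tgfa was 1.18-fold lower after 45 min and, after 60 min, 1.31-fold lower. Before scaling, its signal was 1663 at 60 min and 1361 at 0 min, so the 60 min direction rests on the scaling. At 45 min 9.67% of genes, and at 60 min 10.5%, were as far down.

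Egf, the founding ligand of the family, had 10 spots per array of a probe at rn4 chr2:227104446-227104505 on the minus strand. Its level was -2.34, -2.36, -2.32, -2.21 and -2.35 log2 units at the 5 times. The spread between its spots on an array was 0.13 to 0.22 log2 units (SD, n = 10 spots), and the widest difference between times was 0.14. Spot by spot, the largest difference from 0 min was at 45 min, 0.13 ± 0.12 (SD, 10 spots), with 9 of 10 spots higher. At 60 min 5 spots were higher and 5 lower.

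Btc (betacellulin) and Ereg (epiregulin), which both bind EGFR and ERBB4, were not well above background on any of the 5 arrays. The Btc spot, at rn4 chr14:18233593-18233652 on the plus strand, had processed signals of 2.55, -0.06, -0.15, 1.70 and 7.28 in order of time. The 60 min value was the highest and still not called above background. The Ereg probe, with a span from chr14:18521343 to chr14:18522341 on the minus strand of rn4, read -0.56, -0.91, -0.60, -0.24 and -0.88. No fold is given for either gene. Btc, Areg, Ereg and Epgn (epigen) follow one another on rat chromosome 14 in the RefSeq gene order, and Epgn was not well above background on any array either. Of these 4 neighbouring ligand genes only Areg, at 0 min, was measured.

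Among the receptors, Egfr had 2 probes. The brighter, with 10 spots and a span from chr14:97786789 to chr14:97787499 on the plus strand of rn4, had log2 levels of -3.86, -3.79, -3.75, -3.59 and -4.37 in order of time. The other, at chr14:97788051-97788110, was not well above background on any array, so it gives no second reading. The first 4 arrays differed by up to 0.27 log2 units, and the 60 min array lay below all of them. At 60 min Egfr was 1.42-fold lower than at 0 min (log2 -0.50), and 5.61% of genes were as far down. Of the 1722 genes at its level, 95% had 60 min differences between -0.77 and 0.90, which includes Egfr. Of the shared spots, 8 of 9 were lower, with a spot difference of -0.48 ± 0.31 (SD, n = 9 spots). Against 45 min Egfr was 1.71-fold lower, in 9 of 9 spots. Before scaling, its signal was 23.2 at 60 min and 20.6 at 0 min, so the direction against 0 min and the spot count rest on the scaling between arrays. The spots of this probe are dim, with 7 to 10 of them well above background on an array. At 45 min the difference from 0 min was 0.23 ± 0.36 (SD, n = 10 spots), less than the spread between spots.

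Erbb2, the receptor without a ligand, had 10 spots per array of a probe at rn4 chr10:87241824-87241883 on the plus strand. Its spots averaged 0.00 ± 0.084, -0.31 ± 0.15, -0.17 ± 0.22, -0.19 ± 0.11 and 0.06 ± 0.069 log2 units (SD over 10, 10, 10, 9 and 10 spots) in order of time. The 15, 30 and 45 min arrays lay below the arrays at both ends. All 10 spots were lower at 15 min than at 0 min, by 0.30 ± 0.095 log2 units (SD), which is 1.23-fold. At 30 min 8 of 10 and at 45 min 9 of 9 were lower, and at 60 min 8 of 10 were higher. Of the 1952 genes at its level, 95% differed by -0.38 to 0.37 between 0 and 15 min, which includes Erbb2 at 15 min. The 60 min difference of 0.06 changed sign to -0.14 when arrays were scaled on the added control transcripts.

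Erbb3 was read by 1 spot per array, with a span from chr7:1859093 to chr7:1859343 on the minus strand of rn4. Its log2 level was -3.08, -3.19, -2.97, -3.35 and -3.73 in order of time. The 60 min array was the lowest and the 30 min array the highest. At 60 min it was 1.57-fold lower than at 0 min (log2 -0.65), and 2.62% of genes were as far down. Genes as dim as Erbb3 spread widely: 95% of 2397 of them had 60 min differences between -0.88 and 0.78, which includes Erbb3. Before scaling, its signal at 60 min was 36 and at 0 min 35.4, while the 75th percentile was 479.3 and 300.2, so the direction of the difference rests on the scaling between arrays.

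**Figure D2:**
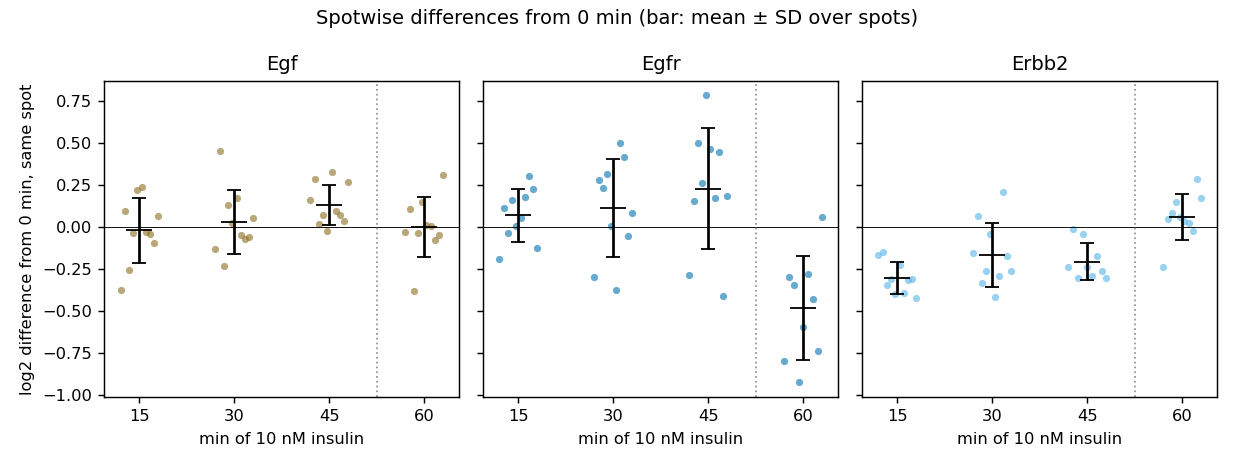
Difference from 0 min of the same spot, in log2 units (vertical axis), at 15, 30, 45 and 60 min (horizontal axes) for the 3 genes printed in 10 spots; points are spots and bars the mean ± SD over spots, which shows technical error only. All 10 Erbb2 spots are below 0 at 15 min, 8 of 9 Egfr spots are below 0 at 60 min, and the Egf spots straddle 0.

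Errfi1, the feedback inhibitor, was read by 1 bright spot per array, at rn4 chr5:168025720-168025779 on the plus strand. Its processed signal was 26295, 20846, 31813, 27089 and 29730 in order of time, each with a software error near 10% of it (2629 at 0 min). Divided by the 75th percentiles, its log2 level was 6.45, 6.29, 6.97, 6.73 and 5.95. The level was highest at 30 min, next at 45 min, and lowest at 60 min. Against 0 min the differences were -0.17, 0.52, 0.28 and -0.50 log2 units. At 30 min it was 1.43-fold higher, and 1.71% of genes were as far up. Of 345 genes at its level, 95% had 30 min differences between -0.28 and 0.32, and Errfi1 lay above them. The step within the first slide from 15 to 30 min was 1.61-fold upward (log2 0.68), matched by 0.569% of genes. At 60 min it was 1.41-fold lower than at 0 min, and 5.8% of genes were as far down. That difference lay below the 95% range of -0.42 to 0.42 of 340 genes at its level. Against 30 min Errfi1 was 2.02-fold lower, with 0.57% of genes as far down. The unscaled signal at 60 min was above that at 0 min, so the direction against 0 min rests on the scaling, the percentile being 1.60 times that at 0 min. The higher level at 30 and 45 min and the lower level at 60 min were found in all 10 ways of processing tried. The differences were 0.38 to 0.52 at 30 min, 0.07 to 0.29 at 45 min and -0.69 to -0.40 at 60 min. The 10 ways include the one reported and all read the same 1 spot per array, so they are not separate checks. Those on filters, outlier spots and probe choice could change this gene only through the array scale. The promoter of Errfi1, chr5:166606591-166606840 on the plus strand of GRCr8, is the following.
Errfi1: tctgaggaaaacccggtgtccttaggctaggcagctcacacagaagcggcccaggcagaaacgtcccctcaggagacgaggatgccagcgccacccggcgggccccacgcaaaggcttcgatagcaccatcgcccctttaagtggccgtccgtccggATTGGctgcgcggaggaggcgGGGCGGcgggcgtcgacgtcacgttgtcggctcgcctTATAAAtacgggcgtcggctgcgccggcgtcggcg
Capitals mark a CCAAT box on the reverse strand at 93 to 89 bases before the start, a GC box at 72 to 67 and a TATA box at 35 to 30. GC content was 67.2%. A CCAAT box was held by 3 of the 8 promoters, those of Errfi1, Hbegf and Erbb2, and by 34.0% of all promoters. None of the 8 promoters held an AP-1 site (TGANTCA), an EGR site (GCGNGGGCG), a CArG box or a FoxO site (TGTTTAC), which occur in 6.34%, 4.29%, 1.5% and 3.21% of all promoters. Both strands were searched, and an EGR site can overlap a GC box.

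**Figure D3:**
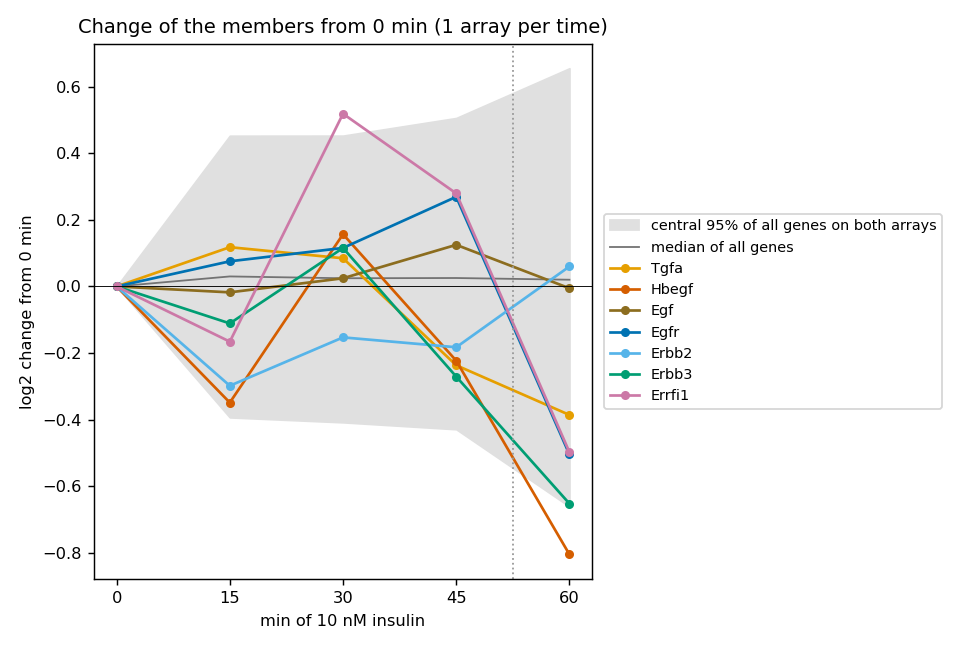
Difference from 0 min in log2 units (vertical axis) against minutes of insulin (horizontal axis) for the 7 genes measured on all arrays, with the central 95% of all genes measured on both arrays in grey and their median as a thin line; the dotted line marks the change of slide. Errfi1 at 30 min (0.52) and Hbegf at 60 min (-0.80) leave the grey band, and the other points lie inside it.

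At 30 and 60 min most of the genes lay on one side of 0 min, above it at 30 min and below it at 60 min. At 15 min 2 of the 7 genes measured on both arrays were above 0 min and 5 below, where 42.9% of all genes were below. At 30 min 6 were above and 1 (Erbb2) below, against 44.6% of all genes below. Of the 6, Egf was above by only 0.02 and Tgfa by 0.08 log2 units, both within the technical SD of 0.10. At 45 min 3 were above and 4 below, against 44.5%. At 60 min 1 (Erbb2) was above and 6 below, Egf by only 0.01 log2 units, against 47.3%. The median difference of the 7 was -0.11, 0.12, -0.18 and -0.50 log2 units, beside 0.03, 0.02, 0.03 and 0.02 over all genes. With arrays scaled on the added control transcripts, 0, 2, 2 and 0 of the 7 genes were above 0 min at the 4 times, so the count at 30 min turns with that choice. With both normexp backgrounds, and with the percentile over detected probes, 5 of the 7 were above at 30 min. Before any scaling, the signal at 60 min was above that at 0 min for 6 of the 7 genes, all but Hbegf, so the count at 60 min rests on scaling between the slides. All 4 comparisons share the 0 min array. Within the first slide, 6 of the 7 were higher at 30 min than at 15 min, where 48.7% of all genes were, and Errfi1 alone by at least 1.5-fold, where 0.827% were.

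None of the 8 genes with a value was 2-fold or more higher than 0 min at 15, 30, 45 or 60 min, where 0.965%, 1.04%, 1.32% and 2.04% of all genes were. The count of those at least 2-fold lower was 1 at each time, always Areg by its bound, where 1.43%, 1.16%, 1.54% and 1.84% of all genes were. At 60 min Hbegf and Erbb3 were at least 1.5-fold lower on 2 arrays that both measured them, 2 of 7, where 3.72% of all genes were. Counting Areg by its bound made it 3 of 8, against 4.98%. From 30 to 60 min 4 of 7 (Hbegf, Egfr, Erbb3 and Errfi1) were at least 1.5-fold lower, where 5.68% of all genes were, and Errfi1 alone passed 2-fold, where 0.628% did. The 30 and 60 min arrays are on different slides.

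A straight trend over the 5 arrays, fitted with limma on 20506 genes, was called for none of the 8 genes with a value, nor for any other gene, after Benjamini-Hochberg adjustment (0 rising and 0 falling). At an unadjusted p under 0.05 limma gave a positive slope for 1102 genes (5.37%) and a negative one for 690 (3.36%), and of the 8 genes for Tgfa only, a negative one. Its slope was -0.45 ± 0.18 log2 units per hour (SE; limma adjusted p = 0.563, 5 arrays). Erbb3 had a slope of -0.59 ± 0.23 with the same adjusted p by limma, and of -0.23 without the 60 min array. That of Tgfa was -0.73 without the 0 min array and -0.30 without the 60 min array. For Errfi1, whose path went up and then down, the slope was -0.22 ± 0.43 (limma adjusted p = 0.869), and it was 0.61 within the first slide, without the 60 min array. For Egfr the slope was -0.33, and 0.34 without that array. A fit with 3 residual degrees of freedom sees only changes near to linear.

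Of 47 other genes of EGF receptor signalling, 42 were on the array, 35 were well above background on all 5 arrays and 5 on none (Epgn, Erbb4, Spry2, Spry4 and Spred2). None was 2-fold higher or lower than 0 min at any time. Of these 35 genes, 17 were above 0 min at 15 min, 13 at 30 min, 17 at 45 min and 16 at 60 min. At 60 min 3 were at least 1.5-fold lower (Lrig1 and Lrig2 among them, against 4.98% of all genes) and 1, Adam10, at least 1.5-fold higher by a bound (against 6.16%). Their median difference was -0.01, -0.03, -0.02 and -0.01 log2 units at the 4 times. In the limma fit 37 were tested, 0 were called, and at an unadjusted p under 0.05 the slope was positive for 1 and negative for 3.

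The neuregulins Nrg1 and Nrg2, ligands of ERBB3 and ERBB4, were the 2 other ligand genes measured. Nrg1 differed from 0 min by -0.34, -0.29, -0.42 and -0.25 log2 units on its brighter probe, and by -0.13, -0.04, 0.10 and -0.03 on its other one. The 2 probes of Nrg1 thus disagree. Nrg2 differed by 0.03, -0.19, -0.12 and 0.14, with its 2 other probes not well above background on any array. Of the genes of ligand shedding, Rhbdf1 and Rhbdf2, inactive rhomboids that guide ADAM17 to the surface, had the largest mean differences over 30 to 60 min among those measured on all 5 arrays. Rhbdf1 was 0.39 higher at 45 min, and Rhbdf2 was lower by 0.41 at 30 min and higher by 0.38 at 60 min. Adam17, the main sheddase of Tgfa, Hbegf and Areg, differed by 0.08, 0.19, -0.06 and -0.21.

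Among the adaptors, Ptpn11, the phosphatase SHP2 that passes the signal to RAS, was higher at all 4 times on both its probes, by 0.40, 0.35, 0.51 and 0.35 on the brighter and by 0.31, 0.15, 0.40 and 0.05 on the other. Scaling on the added control transcripts lowers each of these by 0.14 to 0.21, which turns only the last below 0. Grb2, the adaptor that brings SOS to the receptor, was higher by 0.26, 0.22, 0.35 and 0.57 on its brighter probe. Its other probe gave -0.08, -0.11, 0.07 and -0.01, so the probes disagree. Among the brakes, Lrig2 differed by 0.26, -0.12, -0.38 and -0.83, the lowest of the list at 60 min. Lrig1, which promotes receptor breakdown, was 0.59 lower at 60 min. Ptpn1, a phosphatase that acts on EGFR and the insulin receptor, was higher by 0.28, 0.35 and 0.37 at 15, 30 and 45 min on its brighter probe. Its other probe was higher by 0.29, 0.23 and 0.30 at these times, while at 60 min the 2 probes gave -0.01 and 0.65. Spry1, an inhibitor of receptor tyrosine kinase signalling, had differences of -0.21, 0.17, 0.28 and -0.23.

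**Figure D4:**
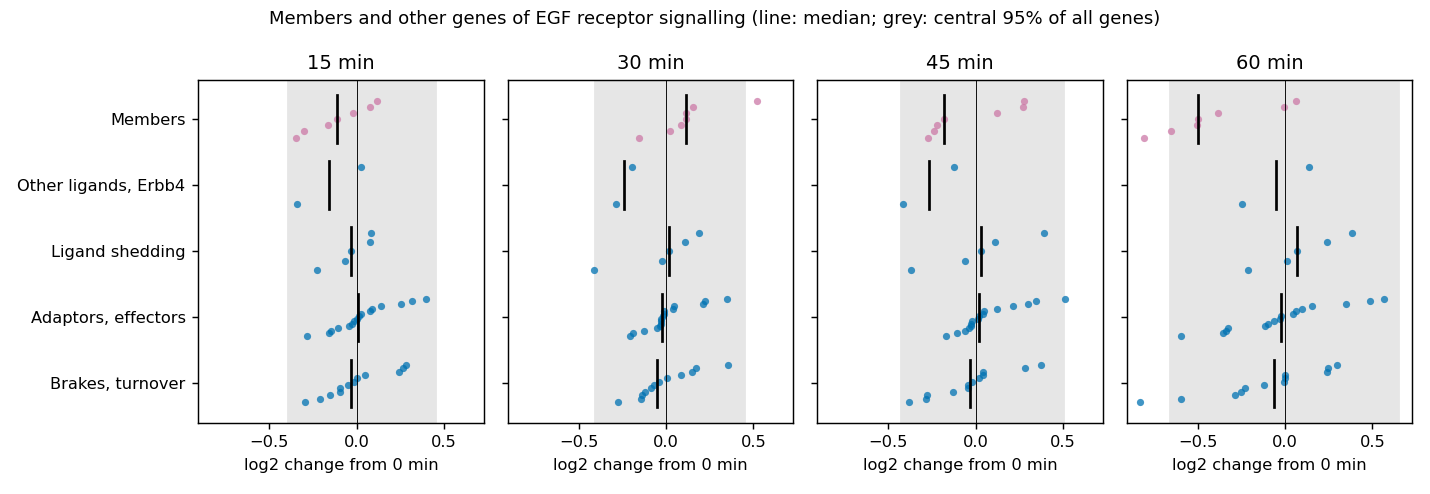
Difference from 0 min in log2 units (horizontal axes) at 4 times for the 7 genes (top line, "Members") and for the other genes of EGF receptor signalling by role, each point a gene well above background on all 5 arrays or on both arrays compared; black lines are medians and the grey band the central 95% of all genes. The 7 genes have a median of -0.50 at 60 min, and the medians of the adaptors and brakes lie within 0.1 of 0.

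The genes whose 4 differences were most like those of Errfi1, among 8779 with a symbol and a signal on all arrays, were Apcdd1, Cox8b, Rpusd1, Kcnk1 and Ttyh2, with root mean square differences of 0.12 to 0.15 log2 units. Apcdd1, a Wnt inhibitor, differed from 0 min by -0.19, 0.62, 0.39 and -0.30. For Egfr they were Lats2, Ppp2r5e, Llph, Nr1h3 and Acbd6 (0.035 to 0.049). For Hbegf they were Plcd3, Rnf43, Ankmy2, Gip and Cmklr1 (0.088 to 0.14). The likeness is over 4 differences that share the 0 min array and describes these 5 arrays only. No other member of the family was among these 15 genes.

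**Figure D5:**
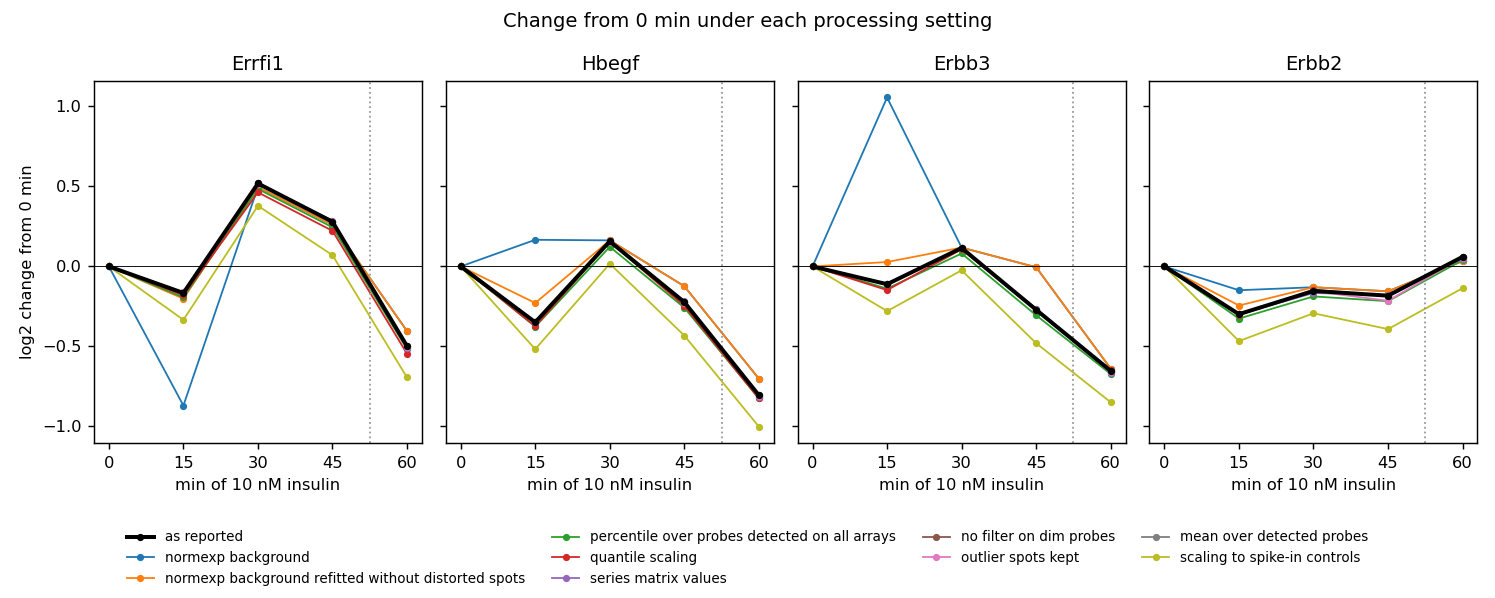
Difference from 0 min in log2 units (vertical axis) against minutes of insulin (horizontal axes) for Errfi1, Hbegf, Erbb3 and Erbb2, as reported (black) and under 9 other ways of processing (coloured lines, some hidden by others). Errfi1 is above 0 at 30 and 45 min and below 0 at 60 min on every line, while the normexp line departs at 15 min. Its refit, which left out 5 spots counted over all arrays, lies nearer the reported line there.

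Tgfa, Hbegf, Egfr, Erbb3 and Errfi1 were lower at 60 min than at 0 min in each of the 10 ways of processing tried, all of which scale the arrays to each other. These ways share the same spots and are not 10 separate checks. Tgfa, Hbegf, Erbb3 and Errfi1 had 1 spot per array. For them the settings on filters, outlier spots and probe choice could act only through the array scale. Hbegf differed by -1.001 to -0.70 log2 units and Erbb3 by -0.85 to -0.64 log2 units. Hbegf at 30 min was above 0 min in all 10, by as little as 0.02 when arrays were scaled on the added control transcripts. At 15 min it was below in 9 of 10 and 0.17 above with the normexp background. Erbb2 was below 0 min at 15, 30 and 45 min in all 10.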

How the data were processed

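Total RNA of 5 Fao cultures was measured on 1 Agilent rat array each, and the labels' times made the groups. The deposited intensity values come from Agilent Feature Extraction 9.5.3.1, per the file headers, which subtracts a background and corrects spatial trends, so it can be negative. The deposited series matrix holds log2 values, by their fit to the scanner values centred per probe, with the rule that chose its probes not given in the sources used here. It served as an alternative. Control and outlier spots were left out, spots of a probe averaged, signals divided by the array's 75th percentile, floored at the lowest signal well above background and put on a log2 scale. A probe was used on an array where at least 0.5 of its spots were well above background, and the brightest probe stood for a gene. Of 41012 probes, 10835 were named through accession and 8674 through symbol in RefSeq tables, and 21503 kept the name in the files. Probe positions are those of the files, on rn4. Exons and UTRs were not assigned, since no genome was used here. Trends used limma 3.58.1 (R 4.3.3) with 1 floor for all arrays, and Benjamini-Hochberg adjustment at 0.05. Other steps used matplotlib 3.10.9, pandas 2.3.3, numpy 2.4.6 and Python 3.11.15, and the fit was tested on simulated data.

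The text names all 10 genes, any of the 47 pathway genes past 2-fold, the 2 in each role with the largest mean difference over 30 to 60 min, and 5 genes of like pattern for Errfi1, Egfr and Hbegf. Adam10, Adam17, Lrig1, Spry1 and, among the genes not measured, Epgn, Erbb4, Spry2, Spry4 and Spred2 were added after their values were seen. A gene of the pathway list is not reported here by name. The genes and lists were chosen with earlier results of these data known. Samples from separate cultures per time were not among those given, so biological error is unknown. Alternatives covered background, scaling, filters, probe choice, reference array, fold and arrays in the fit.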

Additional observations from a re-analysis of the deposited data

How the results depend on the processing

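Of 664 values recomputed under 17 alternatives, 552 were counted as unchanged, 103 as moved and 9 as changed in sign. Unchanged meant within 1.5-fold for a count and within the technical error for a difference or median. For a slope it meant the same sign and the same call. Many of the unchanged values had little room to move, so the tally does not measure robustness. Averaging over detected probes left every difference of the genes as reported, and many counts held no gene under either setting. As no slope of the genes was called in any fit, only a change of sign could set one apart. The 9 are all slopes. A difference counted as changed in sign only if it was at least 2-fold as reported. Some smaller differences changed sign and are among the unchanged or moved, as Egfr at 15 min with spike-in scaling (0.08 to -0.09). The count of genes at least 2-fold lower rests on Areg, 1 dim spot: it was 0 at all 4 times with both normexp backgrounds and with the series matrix, where Areg has no value, and 0 at 30, 45 and 60 min against the 15 min array. At 60 min it was 2 with spike-in scaling, which adds Hbegf, and 3 at 1.5-fold. Normexp on all spots put 2 genes 2-fold higher at 15 min, where it did so for 3283 of all genes, and 1 of the pathway list. Pathway genes lower at 60 min were 1 with spike-in scaling, 1 against 15 min and 3 at 1.5-fold, with 1 higher. The median difference of the genes was 0.17 at 15 min and -0.0050 at 45 min with normexp, 0.028 and -0.0050 with its refit, -0.28, -0.024, -0.39 and -0.69 at the 4 times with spike-in scaling, and 0.13 at 45 min against 15 min. The refit and spike-in scaling were chosen after seeing the data. Slopes per hour changed sign for Egf (-0.076 with normexp, -0.13 with its refit, -0.12 with spike-in scaling), Errfi1 (0.13 with normexp, 0.18 as a step after 15 min), and Erbb2 (-0.079 with spike-in scaling). Leaving out 1 array at a time gave -0.49 to 0.61 for Errfi1, -0.16 to 0.42 for Erbb2 and -0.63 to 0.34 for Egfr, with the sign changed only without the 60 min array. The cause of these shifts was not tested. No trend was called for any of the 8 genes in any fit, with smallest adjusted p by limma of 0.363 to 1. Spike-in scaling also lowered the share of all genes past 2-fold that were higher from 47.3% to 35.9% at 30 min, from 46.2% to 34% at 45 min and from 52.6% to 35.1% at 60 min. No paired analysis was possible because each time has 1 sample. Signal limits Areg, Btc, Ereg, Erbb3 and Egfr most, and the lack of replicates limits every value.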
